A study of Caenorhabditis elegans with 15 samples.

Results

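The SNARE genes of Caenorhabditis elegans described here are 8 genes that code for proteins of membrane fusion. Their probes were found by sequence name, without a threshold on any measured value. The array carried 9 probes for them, 1 spot each, among 19084 probes for 18542 sequence names, because unc-64 had a probe for its a and one for its b transcript. The members are snb-1 (T10H9.4), ykt-6 (B0361.10), gos-28 (F08F8.8), syx-5 (F55A11.2), syx-16 (ZC155.7), snap-29 (K02D10.5), unc-64 (F56A8.7) and ric-4 (Y22F5A.3). All 8 sequence names carried the listed symbol in the RefSeq gene table of the WBcel235 assembly.

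The transcript data came from 15 DNA microarrays, 5 for nematodes from Elbe sediment, 5 for Rhine sediment and 5 for Danube sediment. The study ranked the Elbe sediment as highly, the Rhine sediment as moderately and the Danube sediment as least contaminated, and used the Danube as the comparator. All worms were of strain N2 (Bristol), L4 larvae and young adults at the start, taken as whole animals after 48 h in sediment mixed with Escherichia coli as food. Each replicate was a biological repetition that pooled 24 vials, each with 0.5 g of sediment and 20000 worms. The sediment of each river came from a single site, as subsamples that were combined and homogenized. The spread between replicates therefore does not cover differences between sediment samples of a river. No array of worms without sediment was analysed here. On every array the sediment worms carried Cy5 and a common reference pool, made up of RNA of worms from every sediment and of laboratory controls, carried Cy3, and the dyes were not swapped. RNA of whole worms was measured, so that fewer cells of a type and less RNA per cell cannot be told apart.

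SNAREs are tail-anchored or lipid-anchored proteins of vesicles and their target membranes. A bundle of helices from an R-SNARE and from Qa, Qb and Qc SNAREs zips up between both membranes and drives their fusion, after which the ATPase NSF takes the bundle apart. At the synapse, the vesicle protein synaptobrevin pairs with syntaxin and with a SNAP protein that supplies 2 of the helices. Within the Golgi, other members of the family carry out the same reaction for cargo on its way to the surface, and in the endosomes for cargo that returns. In C. elegans, snb-1, unc-64 and ric-4 code for the synaptic set, which neurons need to release transmitter. The genes ykt-6, gos-28 and syx-5 code for SNAREs of the Golgi and its traffic with the endoplasmic reticulum. Syntaxin 16, from syx-16, works in transport from endosomes to the trans-Golgi network, and SNAP-29 acts in several fusion steps outside the synapse.

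Detection came first, since it differed widely among the members. BlueFuse gave each spot a confidence score from 0 to 1, and a spot was counted as detected where the score was above 0.05. The probe of snb-1 was detected on 15 of 15 arrays, and so was that of syx-16. For syx-5 the count was 13 of 15 and for snap-29 it was 11 of 15, with 3 Danube arrays in each case. These 4 probes passed the spot filter, which demanded detection in every sediment on no fewer than 3 of its 5 arrays and was passed by 5347 of the 19084 probes. The a probe of unc-64 was detected on 5 Elbe, 5 Rhine and 2 Danube arrays, and its b probe on 5 Elbe, 4 Rhine and 1 Danube array. The probe of ykt-6 was detected on 4 Elbe, 0 Rhine and 2 Danube arrays. Almost no array detected the remaining pair. The probe of gos-28 passed on 1 array (Rhine) and that of ric-4 on 2 arrays (both Rhine). Of the 9 probes, 5 to 7 were detected on each Elbe array, 6 to 7 on each Rhine array and 3 to 6 on each Danube array. Over the whole array, too, fewer spots were detected on Danube arrays, with a median of 53.4% of the gene spots undetected on Elbe arrays, 49.5% on Rhine arrays and 55.7% on Danube arrays. Its part in the SNARE values was not tested.

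**Figure D1:**
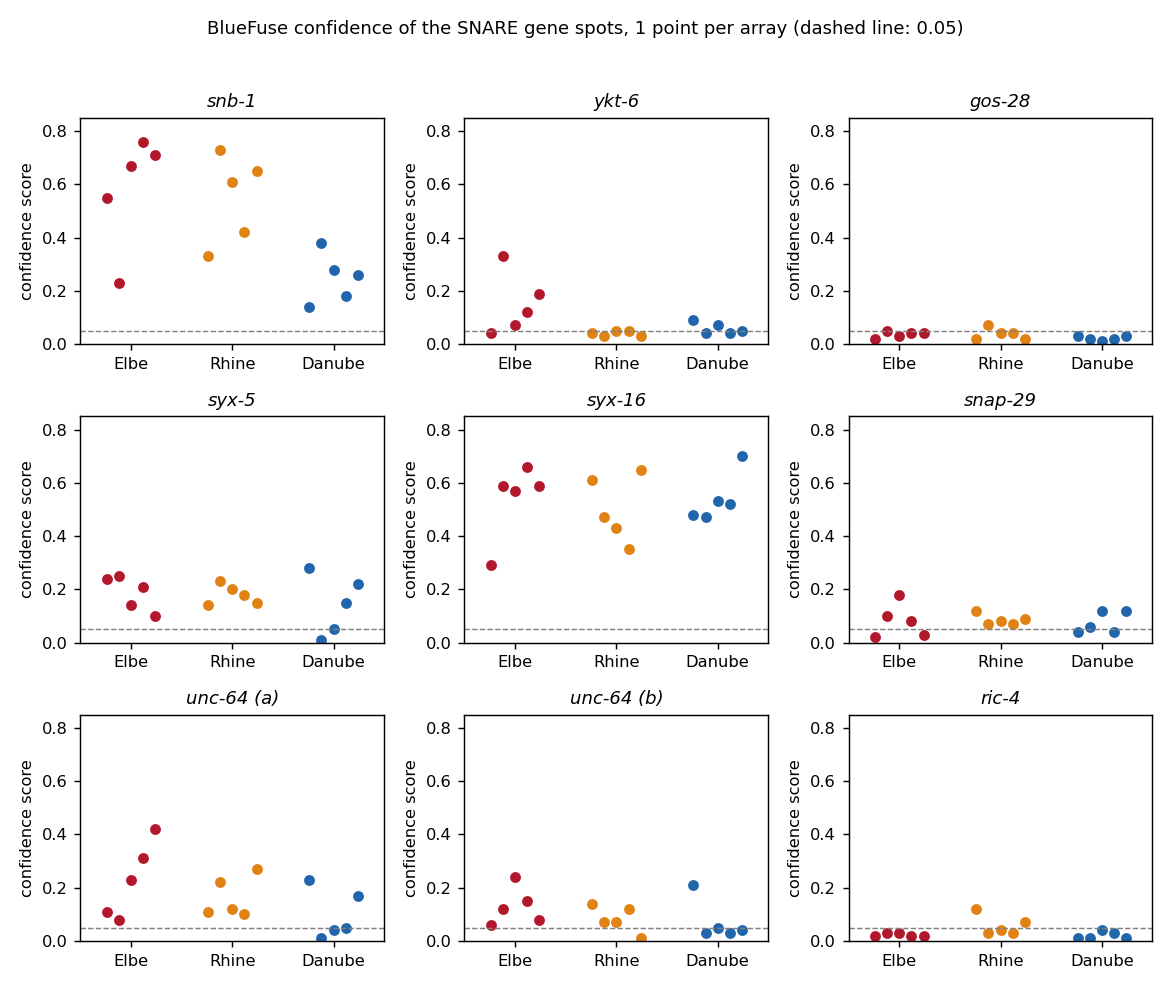
BlueFuse confidence score (vertical axis, 0 to 1) of the 9 SNARE probes on each array, grouped as Elbe, Rhine and Danube, with 1 point per array and a dashed line at 0.05. The probes of snb-1 and syx-16 lie above the line on 15 of 15 arrays, and those of gos-28 and ric-4 on 1 and 2.

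Differences were tested on log2(Cy5/Cy3), the ratio of the sediment worms to the reference pool after print-tip loess, with limma over the 15 arrays and Benjamini-Hochberg adjustment. Values of the 4 filtered probes come from the fit over 5347 probes and those of the other 5 from the same fit over all 19084. None of the 9 probes reached an adjusted p under 0.05 in any of the 3 comparisons, and none had an unadjusted p under 0.05. Over the filtered probes, the adjusted p was under 0.05 for 1 probe in Elbe against Danube (0.0187%) and by limma for 0 in each of the other comparisons, in which 689 probes (Rhine against Danube) and 571 probes (Elbe against Rhine) had an unadjusted p under 0.05. The study called a transcript changed when its fold reached 1.4 upwards or 0.7 downwards and its unadjusted p was under 0.05. Of the filtered probes, 4.34% were called higher and 1.95% lower in Elbe against Danube, 11.4% higher and 1.44% lower in Rhine against Danube, and 2.49% higher and 8.02% lower in Elbe against Rhine. These thresholds were passed by 0 of the 9 SNARE probes in each comparison. Over all probes, the background for the 5 weaker members, the shares in both directions were 4.24%, 6.75% and 6.3% in that order of comparisons. The median difference of the 9 probes was 0.20 for Elbe against Danube, 0.40 for Rhine against Danube and -0.43 for Elbe against Rhine on the log2 scale, where all filtered probes had medians of 0.08, 0.24 and -0.17 and all probes 0.03, 0.10 and -0.07. With the Cy5 signal alone the median of the 9 for Elbe against Rhine turned to 0.14. The median of all filtered probes turned likewise, to 0.16, and that of all probes to 0.04. The mean was higher in Elbe than in Danube for 5 of the 9 probes and higher in Rhine than in Danube for 8, where the Cy5 signal alone gave 7 in each case. It was higher in Elbe than in Rhine for 2 of the 9 probes, and for 6 with the Cy5 signal alone.

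**Figure D2:**
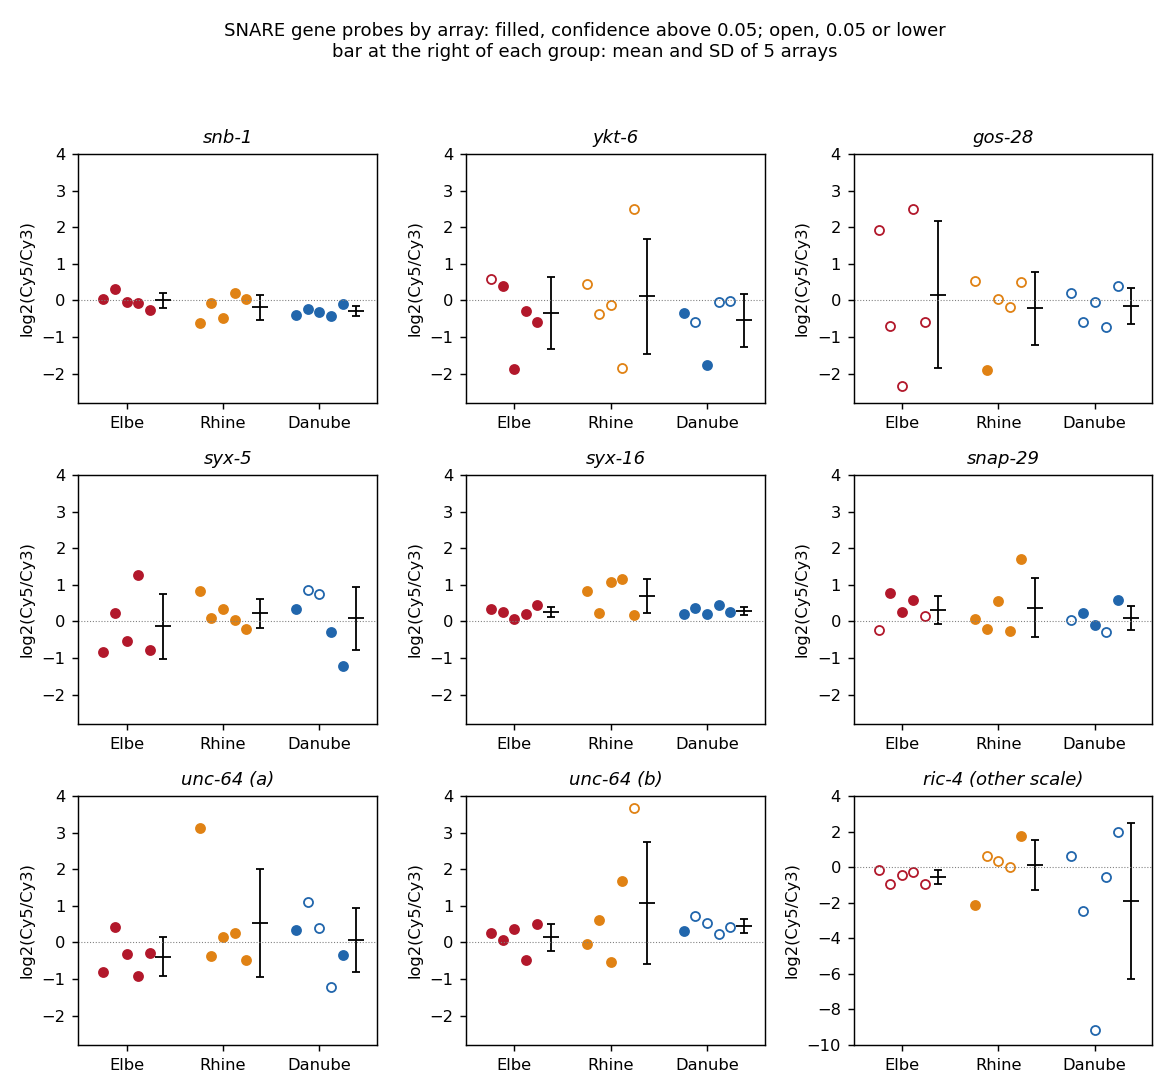
Log2(Cy5/Cy3) of the 9 SNARE probes on each array (vertical axis), grouped as Elbe, Rhine and Danube, with filled points where the confidence was above 0.05, open points otherwise, and the mean and SD of the 5 arrays at the right of each group. The ratios of snb-1 stay between -0.61 and 0.32 and those of syx-16 between 0.06 and 1.17, while ric-4, on a scale of its own, reaches -9.17 on Danube replicate 3.

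Synaptobrevin, the vesicle SNARE of the synapse, was the member measured with the least scatter. The log2 ratio of snb-1 was 0.03, 0.32, -0.03, -0.06 and -0.25 on Elbe replicates 1 to 5, with confidence scores of 0.55, 0.23, 0.67, 0.76 and 0.71 in the same order. It was -0.61, -0.07, -0.49, 0.20 and 0.03 on Rhine replicates 1 to 5, with scores of 0.33, 0.73, 0.61, 0.42 and 0.65. On Danube replicates 1 to 5 it was -0.39, -0.24, -0.32, -0.42 and -0.10, with scores of 0.14, 0.38, 0.28, 0.18 and 0.26. Elbe arrays thus read higher than all Danube arrays in 4 of 5 cases, and the ranges still overlapped. The pooled SD within sediments was 0.245, smaller than that of all but 0.828% of the 19084 probes, whose median was 0.938.

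The order of the snb-1 means was Elbe, Rhine, Danube, at 0.00 ± 0.21, -0.19 ± 0.35 and -0.29 ± 0.13 (log2 ratio, SD, n = 5 each). Elbe exceeded Danube by 0.30 with a 95% interval of -0.17 to 0.76, a 1.23-fold difference (limma, unadjusted p = 0.194, adjusted p = 0.880). Rhine exceeded Danube by 0.10 (-0.36 to 0.57) and Elbe exceeded Rhine by 0.19 (-0.27 to 0.66). No neighbours in this order differed beyond the spread between replicates.

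Syntaxin and the SNAP protein of the same synaptic complex gave no clearer picture. The a probe of unc-64 read -0.82, 0.41, -0.32, -0.91 and -0.28 on the Elbe arrays, with confidence scores of 0.11, 0.08, 0.23, 0.31 and 0.42. On the Rhine arrays it read 3.12, -0.38, 0.16, 0.27 and -0.49, with scores of 0.11, 0.22, 0.12, 0.10 and 0.27. On the Danube arrays it read 0.33, 1.11, 0.39, -1.21 and -0.34, with scores of 0.23, 0.01, 0.04, 0.05 and 0.17. Only Rhine replicate 1 stood far from the rest, and the groups overlapped.

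The b probe of unc-64 read 0.25, 0.06, 0.36, -0.47 and 0.50 on the Elbe arrays, with scores of 0.06, 0.12, 0.24, 0.15 and 0.08. Its Rhine values were -0.03, 0.61, -0.54, 1.67 and 3.68, with scores of 0.14, 0.07, 0.07, 0.12 and 0.01. Its Danube values were 0.32, 0.71, 0.54, 0.23 and 0.43, with scores of 0.21, 0.03, 0.05, 0.03 and 0.04. The high Rhine arrays were not the same for both probes of the gene. Rhine replicate 1 read 3.12 with the a probe and -0.03 with the b probe, and Rhine replicate 5 read -0.49 and 3.68. The mean of Elbe lay below that of Rhine by 0.92 with the a probe (95% interval of the difference -2.26 to 0.43, adjusted p = 0.807 over all probes by limma) and by 0.94 with the b probe (-2.24 to 0.36, adjusted p = 0.798). This direction turned with the Cy5 signal alone, where Elbe minus Rhine was 0.07 for the a probe and 0.45 for the b probe. The Cy3 signal of the reference pool, by which the ratio divides, was higher on Elbe than on Rhine arrays by 0.93 and 1.33. Over all probes the median of Elbe minus Rhine was 0.04 for Cy5 alone and 0.07 for Cy3 alone. Elbe minus Danube on the log2 ratio was -0.44 for the a probe and -0.31 for the b probe, with intervals that include 0. Leaving out each array in turn moved Elbe minus Rhine between -1.17 and -0.27 for the a probe and between -1.34 and -0.29 for the b probe. Without Rhine replicate 3 the b probe passed the study's thresholds in Elbe against Rhine, at -1.34 (limma, unadjusted p = 0.0374).

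The probe of ric-4, the worm SNAP-25, was almost never detected. Its ratio was -0.97 to -0.15 on the Elbe arrays (confidence 0.02 to 0.03), -2.12 to 1.75 on the Rhine arrays (0.03 to 0.12) and -9.17 to 2.00 on the Danube arrays (0.01 to 0.04). The value of -9.17 came from Danube replicate 3, whose Cy5 signal was 62.6 against a Cy3 signal of 871. The SD within sediments was 2.66, and 98.2% of all probes scattered less. Elbe minus Danube was 1.36, with a 95% interval of -1.89 to 4.61, so that no difference was detectable at this signal.

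Among the Golgi SNAREs, only syx-5 passed the filter. Syntaxin 5, its product, is the Qa-SNARE of Golgi traffic. The ratio of syx-5 was -0.83, 0.23, -0.54, 1.27 and -0.78 on the Elbe arrays, with confidence scores of 0.24, 0.25, 0.14, 0.21 and 0.10. It was 0.84, 0.09, 0.34, 0.04 and -0.20 on the Rhine arrays, with scores of 0.14, 0.23, 0.20, 0.18 and 0.15. It was 0.33, 0.86, 0.76, -0.28 and -1.22 on the Danube arrays, with scores of 0.28, 0.01, 0.05, 0.15 and 0.22. Elbe spanned the widest range of the sediments, and every group crossed 0. The mean was -0.13 ± 0.89 in Elbe, 0.22 ± 0.40 in Rhine and 0.09 ± 0.86 in Danube (SD, n = 5 each). Elbe minus Danube was -0.22 (95% interval -1.17 to 0.73, limma adjusted p = 0.954) and Rhine minus Danube 0.13 (-0.81 to 1.08, adjusted p = 0.915).

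The R-SNARE ykt-6, which carries a lipid anchor, read 0.59, 0.40, -1.88, -0.29 and -0.58 on the Elbe arrays, with confidence scores of 0.04, 0.33, 0.07, 0.12 and 0.19. It read 0.44, -0.38, -0.13, -1.85 and 2.49 on the Rhine arrays, with scores of 0.04, 0.03, 0.05, 0.05 and 0.03. It read -0.33, -0.59, -1.76, -0.04 and -0.02 on the Danube arrays, with scores of 0.09, 0.04, 0.07, 0.04 and 0.05. The sediments overlapped throughout. Elbe minus Danube was 0.20 (95% interval -1.27 to 1.66) and Rhine minus Danube 0.66 (-0.80 to 2.13).

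The Qb-SNARE gos-28 of the Golgi read 1.92, -0.70, -2.35, 2.50 and -0.58 on the Elbe arrays, with confidence scores of 0.02, 0.05, 0.03, 0.04 and 0.04. Its Rhine values were 0.52, -1.91, 0.03, -0.19 and 0.50, with scores of 0.02, 0.07, 0.04, 0.04 and 0.02. Its Danube values were 0.19, -0.58, -0.03, -0.73 and 0.39, with scores of 0.03, 0.02, 0.01, 0.02 and 0.03. Elbe held both the highest and the lowest of the 15 ratios. Elbe minus Danube was 0.31, with an interval of -1.36 to 1.98.

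Syntaxin 16 gave the most steadily measured ratios after synaptobrevin, with a pooled SD of 0.288 that 1.69% of all probes undercut. The ratio of syx-16 was 0.33, 0.26, 0.06, 0.21 and 0.45 on the Elbe arrays, with confidence scores of 0.29, 0.59, 0.57, 0.66 and 0.59. It was 0.82, 0.23, 1.07, 1.17 and 0.18 on the Rhine arrays, with scores of 0.61, 0.47, 0.43, 0.35 and 0.65. It was 0.20, 0.36, 0.21, 0.45 and 0.25 on the Danube arrays, with scores of 0.48, 0.47, 0.53, 0.52 and 0.70. Rhine replicates 1, 3 and 4 lay above every Elbe and Danube array, and Rhine replicates 2 and 5 lay among them.

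The order of the syx-16 means was Rhine, Danube, Elbe, at 0.69 ± 0.47, 0.29 ± 0.11 and 0.26 ± 0.14 (log2 ratio, SD, n = 5 each). Elbe minus Rhine was -0.43 (95% interval -0.93 to 0.06, limma unadjusted p = 0.0827, adjusted p = 0.512), and this was the lowest p of any SNARE probe on the log2 ratio. The sign turned without the reference pool, with Elbe minus Rhine at 0.14 for Cy5 alone and 0.20 in the authors' value table. The Cy3 signal of the pool, by which the ratio divides, was higher on Elbe than on Rhine arrays by 0.51. Over all filtered probes the median of Elbe minus Rhine was 0.16 for Cy5 alone and 0.29 for Cy3 alone. For syx-16, Rhine minus Danube was 0.40 (-0.09 to 0.90, unadjusted p = 0.105, adjusted p = 0.460) and Elbe minus Danube -0.03 (-0.53 to 0.46). Single arrays moved the Rhine result across the study's thresholds. Without Rhine replicate 2, Elbe minus Rhine was -0.55 (unadjusted p = 0.0348) and Rhine minus Danube 0.52 (unadjusted p = 0.0447, limma). Without Rhine replicate 5, they were -0.56 (unadjusted p = 0.0287) and 0.53 (unadjusted p = 0.0371, limma). The adjusted p stayed between 0.335 and 0.397 in these fits. Many probes passed the thresholds in the same fits. Without Rhine replicate 2 these were 11.8% of filtered probes in Elbe against Rhine and 14.7% in Rhine against Danube. Without Rhine replicate 5 they were 11.9% and 13.7%. With the Cy5 signal alone, Rhine minus Danube was -0.03 for syx-16, and the median of all filtered probes was -0.01.

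SNAP-29 supplies the same pair of helices as SNAP-25 in fusion steps outside the synapse. The ratio of snap-29 was -0.22, 0.78, 0.25, 0.60 and 0.16 on the Elbe arrays, with confidence scores of 0.02, 0.10, 0.18, 0.08 and 0.03. It was 0.08, -0.20, 0.55, -0.25 and 1.72 on the Rhine arrays, with scores of 0.12, 0.07, 0.08, 0.07 and 0.09. It was 0.03, 0.23, -0.09, -0.28 and 0.59 on the Danube arrays, with scores of 0.04, 0.06, 0.12, 0.04 and 0.12. The sediments overlapped. Elbe minus Danube was 0.22 (95% interval -0.52 to 0.96) and Rhine minus Danube 0.28 (-0.46 to 1.02).

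**Figure D3:**
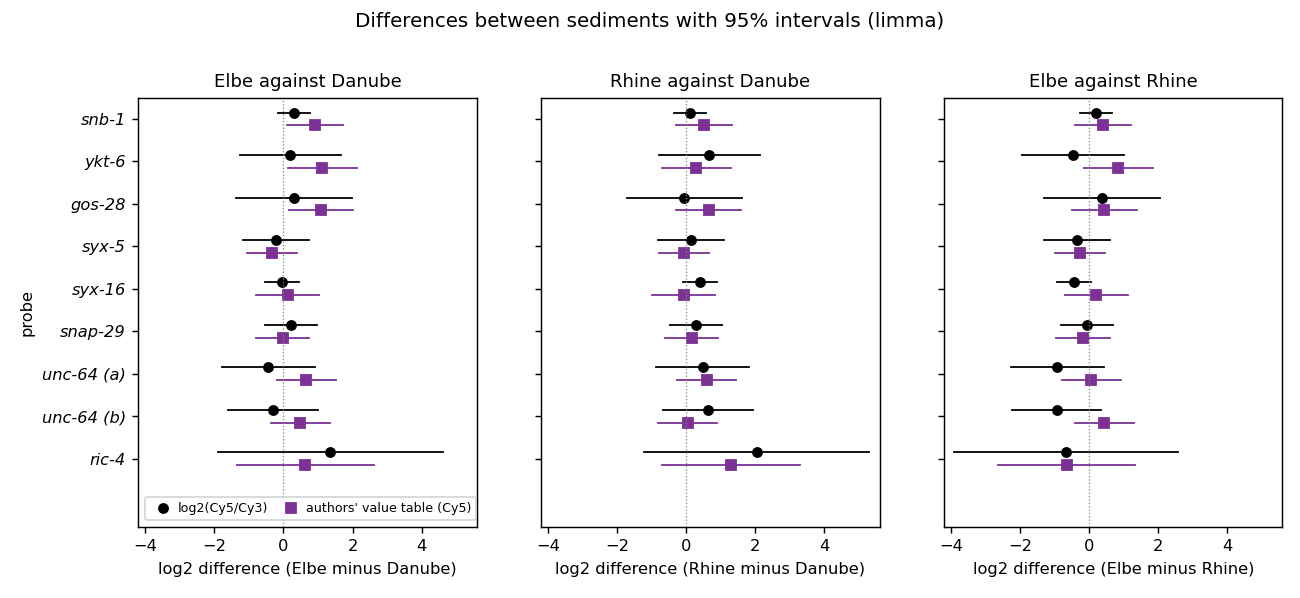
Log2 difference between sediments (horizontal axis) with its 95% interval from limma for each of the 9 SNARE probes, in the comparisons Elbe against Danube, Rhine against Danube and Elbe against Rhine. Circles are log2(Cy5/Cy3), whose intervals all include 0, and squares the authors' value table, whose intervals exclude 0 for snb-1, ykt-6 and gos-28 in Elbe against Danube.

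The authors also deposited a table of processed values, each a ratio to the gene's own median over the arrays. Its rows were matched to probes by their Cy5 profile, and each of the 9 probes had a row that followed its Cy5 signal (1 minus r under 0.001). The reference pool was not divided out. The rows of snb-1 and syx-16 also followed Cy3, at r of 0.92 and 0.91. For the other probes r with Cy3 lay between -0.68 (ric-4) and 0.42 (snap-29). Of the 9 SNARE rows, 3 passed the study's thresholds in Elbe against Danube, all higher in Elbe, against 3.14% of 18231 identifiers in that direction and 6.1% in both. They were snb-1, ykt-6 and gos-28. None was past an adjusted p of 0.05, the lowest being 0.806 by limma, and 0 of 18231 identifiers were, while 1113 had an unadjusted p under 0.05. The genes snb-1, ykt-6 and gos-28 stand in the study's own list of transcripts changed by Elbe sediment. The study also named the SNARE pathway of vesicular transport among those overrepresented with Elbe sediment, though at a lower significance. Both results were drawn from these same samples, so that these differences are not independent evidence. In Rhine against Danube and in Elbe against Rhine, 0 of the 9 rows passed, against 7.22% and 7.15% of identifiers in both directions.

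The log2 value of snb-1 in that table was -0.26, 0.44, 0.00, 0.69 and 0.05 on the Elbe arrays, against -0.96, -0.47, -0.98, -1.21 and 0.00 on the Danube arrays, and the confidence scores are those given above. Elbe arrays lay above all Danube arrays in 4 of 5 cases. The difference was 0.91, or 1.88-fold (95% interval 0.09 to 1.72, limma unadjusted p = 0.0308). For ykt-6 the values were 0.26, 1.71, -0.47, 0.68 and 1.17 on the Elbe arrays, against -0.11, -0.92, -1.30, 0.00 and 0.08 on the Danube arrays, of which 4 and 2 were detected. That difference was 1.12, or 2.18-fold (0.12 to 2.12, unadjusted p = 0.0298 by limma). For gos-28 they were 0.75, 0.54, -0.53, 1.18 and 0.01 on the Elbe arrays, against 0.02, -1.49, -0.28, -1.37 and -0.34 on the Danube arrays, none of them detected. That difference was 1.08, or 2.12-fold (0.15 to 2.02, unadjusted p = 0.0254 by limma).

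Leaving out single arrays ended some of these calls, while the differences stayed between 0.78 and 1.09 for snb-1, 0.86 and 1.41 for ykt-6 and 0.89 and 1.32 for gos-28. The count of 3 was 1 without Danube replicate 3, without Danube replicate 4, without Elbe replicate 2 or without Elbe replicate 4, and it was 2 without Danube replicate 1, Danube replicate 2, Elbe replicate 1 or Elbe replicate 5. Without Danube replicate 2, ykt-6 and gos-28 were lost and the a probe of unc-64 passed, at 0.87. With all arrays, the differences in the table were 0.66 and 0.49 for the a and b probes of unc-64 and 0.64 for ric-4, with intervals that include 0, and those of unc-64 had the opposite sign to the log2 ratio.

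The reference pool was the same material on every array, and its Cy3 signal on the same spots differed too. The Cy3 signal of the snb-1 spot, before normalization, was 2960 to 5192 on the Elbe arrays and 1893 to 4367 on the Danube arrays, while its Cy5 signal was 4410 to 14803 on the Elbe arrays and 1643 to 6257 on the Danube arrays. After normalization, the Cy3 signal of snb-1 was higher in Elbe than in Danube by 0.64 on the log2 scale (95% interval -0.09 to 1.36, limma unadjusted p = 0.0826), against 0.91 for Cy5. By Cy5 alone, snb-1, ykt-6 and gos-28 passed the thresholds, against 7.24% of filtered and 3.19% of all probes called higher. For ykt-6 the Cy3 difference was 0.94 (-0.08 to 1.97) and for gos-28 it was 0.78 (-0.42 to 1.99). In Elbe against Rhine the Cy3 signal alone was higher in Elbe past the study's thresholds for 2 SNARE probes, at 1.24 for ykt-6 and 1.33 for the b probe of unc-64, against 3.63% of all probes in that direction. Whether spot amount or hybridisation differed between the arrays was not tested.

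**Figure D4:**
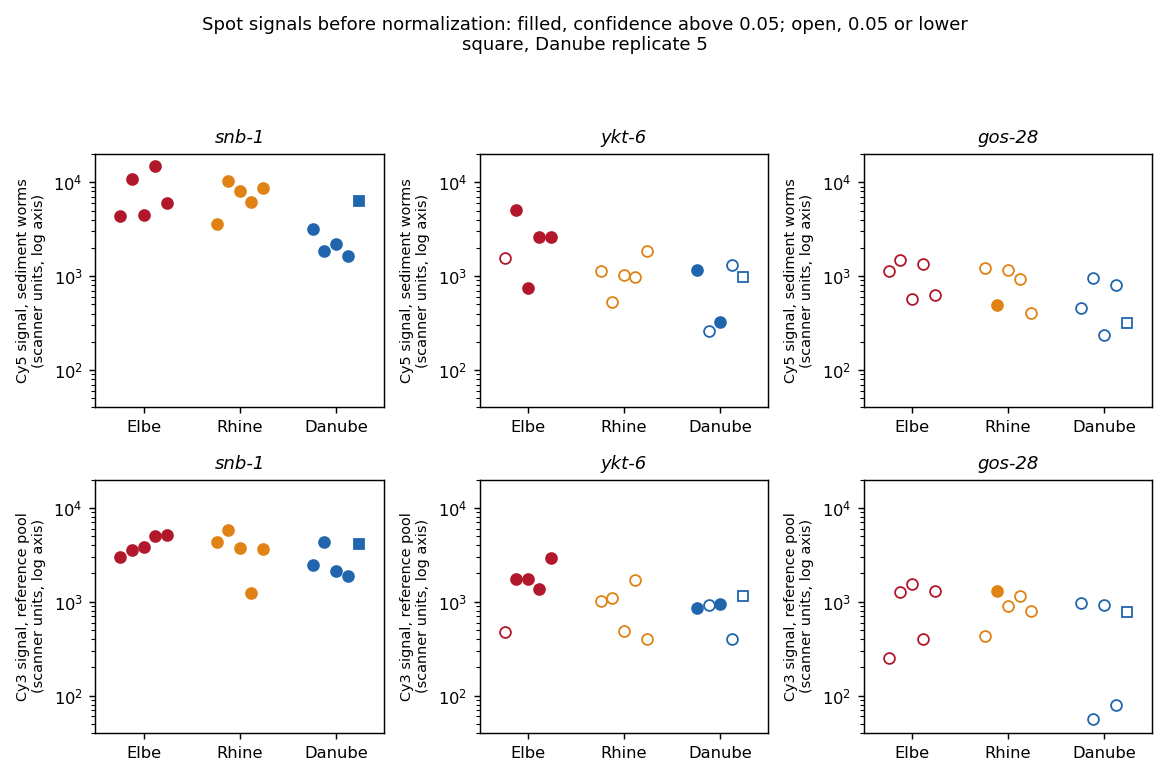
Spot signals before normalization (vertical log axis, scanner units) of snb-1, ykt-6 and gos-28, with Cy5 of the sediment worms in the upper row and Cy3 of the reference pool in the lower row, grouped as Elbe, Rhine and Danube. Filled points have a confidence above 0.05, open points 0.05 or lower, and the square is Danube replicate 5, whose Cy5 signal for snb-1 was 6257 where the other Danube arrays lay between 1643 and 3149.

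The arrays fell into 2 image number series. Per the file headers, 4 Danube arrays belong to the first, and 1 Danube array (replicate 5), 5 Elbe and 5 Rhine arrays to the second. Within the second series, the value table gave Elbe minus Danube replicate 5 as 0.19 for snb-1, 0.59 for ykt-6 and 0.73 for gos-28, against 1.09, 1.26 and 1.17 for Elbe minus the 4 Danube arrays of the first series. With the image series as a block, 0 of the 9 rows passed the study's thresholds (limma, unadjusted p from 0.363 to 0.778 for these genes). That fit rests on 1 Danube array for this contrast, and its SE for snb-1 was 0.65, against 0.39 without the block. For ykt-6 the SE was 0.83 against 0.47, and for gos-28 0.78 against 0.44. On the log2 ratio the same block took the share of filtered probes past the thresholds in Elbe against Danube from 6.28% to 1.78%. Elbe minus Danube replicate 5 was 0.10 for snb-1 on that ratio, against 0.34 for the other Danube arrays. Among the filtered members, syx-5 moved most, where Danube replicate 5 read -1.22, Elbe minus this array was 1.10 and Elbe minus the other Danube arrays -0.55. Image series and sediment cannot be told apart beyond this single Danube array.

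The probes most like each filtered member over the 15 arrays were found by Pearson correlation of the log2 ratio among 5346 other filtered probes. They share the arrays, and the coefficients are descriptions. For snb-1 they were fkh-9 (r = 0.81, Spearman's rho = 0.73), T10H9.1 (r = 0.79, rho = 0.74) and Y116A8B.1 (r = 0.79, rho = 0.81). For syx-5 they were epn-1 (r = 0.82), which codes for an epsin of endocytosis, dct-16 (r = 0.79) and the neuropeptide gene flp-3 (r = 0.76). For syx-16 they were F59B10.6 (r = 0.89), frpr-7 (r = 0.88) and K09C4.4 (r = 0.87), and for snap-29 they were C01G6.4 (r = 0.82), K07E1.1 (r = 0.82) and B0228.7 (r = 0.81).

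Other genes of the fusion machinery were mostly below the filter. Of 22 other SNARE symbols, 18 had a probe, 1 of which, bet-1, names a bromodomain protein in the worm, and only sec-22, an R-SNARE between the endoplasmic reticulum and the Golgi, passed. Its difference was 0.04 in Elbe against Danube and 0.45 in Rhine against Danube, with unadjusted p of 0.939 and 0.422 by limma. Of 7 genes for SNARE assembly and disassembly, 6 had a probe and 2 passed the filter. vps-33.1, a Sec1/Munc18 protein of late endosomes, passed the study's thresholds in Elbe against Danube at 0.77 ± 0.26 (log2 difference, SE, unadjusted p = 0.00964, adjusted p = 0.678 by limma) and in Rhine against Danube at 0.68 ± 0.26 (unadjusted p = 0.0205, adjusted p = 0.342). Both comparisons share the Danube arrays, and 4.34% and 11.4% of all filtered probes were called higher in them. snap-1, the adaptor by which NSF grips the bundle, had differences of 0.32 and 0.25, and neither passed. In the authors' value table, 2 of 6 genes of this list passed as higher in Elbe against Danube, against 3.14% of identifiers. The median difference of the 6 was -0.01 there. In Rhine against Danube 0 passed. In Elbe against Rhine 1 passed as lower, against 3.72% of identifiers.

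Of 7 cofactors of transmitter release, 7 had a probe and only the calcium sensor snt-1, a synaptotagmin, passed the filter, at -0.60 in Elbe against Danube and 0.15 in Rhine against Danube, neither past the thresholds. Of 22 genes for tethering complexes, which hold a vesicle before SNAREs engage, 21 had a probe and 5 passed the filter. All 5 had a higher mean in Elbe than in Danube (median difference 0.38), and 0 of them passed the thresholds in that comparison or in Rhine against Danube. sec-15, of the exocyst, passed in Elbe against Rhine at 0.60 ± 0.23 (SE, limma unadjusted p = 0.0190, adjusted p = 0.388), where 2.49% of all filtered probes were called higher. vps-11 and vps-39, of the complexes that tether endosomes and lysosomes, had differences of 0.51 and 1.45 in Elbe against Danube and did not pass. No gene of these lists had an adjusted p under 0.05.

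Markers of cell types gave the setting in whole worms. Of 10 neuronal genes, 3 passed the filter, namely rab-3, egl-3 and egl-21, with differences of 0.36, -0.36 and 0.45 in Elbe against Danube, and 1 of them, egl-3, passed the thresholds in Elbe against Rhine at -0.61. Of 8 intestine and yolk genes 7 passed the filter, with median differences of -0.02 in Elbe against Danube and 0.27 in Rhine against Danube, where vit-3 passed the thresholds at 1.36. All 3 body wall muscle genes passed the filter, and unc-15 passed the thresholds in Rhine against Danube at 1.04 and in Elbe against Rhine at -0.93. The hypodermal collagen gene col-19 passed the thresholds in Rhine against Danube at 0.81, with an adjusted p of 0.338 by limma. In the authors' value table it passed in Elbe against Danube instead, at 0.99. Of 4 germ line genes 3 passed the filter and 0 the thresholds, with cey-2 at 0.02, puf-5 at 0.26 and glh-1 at -0.62 in Elbe against Danube. In Rhine against Danube these genes were at 0.02, 0.27 and -1.11. Among all filtered probes, 11.4% were called higher in Rhine against Danube and 8.02% lower in Elbe against Rhine. In the authors' value table, 0 muscle probes passed in either of these comparisons, and 0 neuronal probes in Elbe against Rhine. In Rhine against Danube that table called 1 neuronal probe higher, and 0 intestine probes higher and 1 lower. It called 1 intestine probe higher and 1 lower both in Elbe against Danube and in Elbe against Rhine. Of 4 germ line probes it called 1 higher in Elbe against Rhine and 0 in the other comparisons. The table's shares of all identifiers in both directions were 6.1% (Elbe against Danube), 7.22% (Rhine against Danube) and 7.15% (Elbe against Rhine). The part of any of these tissues in the SNARE values was not tested.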

How the data were processed

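Ratios of 15 2-colour arrays were used. The authors deposited spot intensities of both channels from BlueFuse 3.4, not normalized, with a confidence score per spot per the file headers. They also deposited a table of linear ratios to the gene's median, made by print-tip Lowess and median polishing in GeneSpring GX. Its numbered rows were matched to array identifiers by their Cy5 profile (1 minus r under 0.001), which named 18514 of 18653 rows.

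Log2(Cy5/Cy3) was normalized by print-tip loess over 48 blocks and tested with limma 3.58.1 in R 4.3.3 (lmFit, eBayes, all 15 arrays, Benjamini-Hochberg). A probe needed a confidence above 0.05 on 3 of 5 arrays of each sediment. The members and gene lists were chosen with earlier results of these data known. Every member was named. From each list of other genes, up to 3 with the lowest unadjusted p were named, and for each filtered member the 3 probes of highest correlation. The fit was tested on simulated data. Other loess, centring, scaling, offset, filters, channels, blocks and single left-out arrays were tried as alternatives. The number of arrays limits the precision.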

Additional observations from a re-analysis of the deposited data

Results flagged for a closer look

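Of 54 sets of 5 values of a SNARE probe within a sediment (log2 ratio or value table), 2 held an array whose gap to the nearest other exceeded Dixon's 95% limit, and chance alone flags about 1 in 20. The log2 ratio of unc-64 (a) in Rhine replicate 1 was 3.12, at a confidence of 0.11, where the other Rhine arrays lay between -0.49 and 0.27. The Cy3 signal of that spot was 333 and its Cy5 signal 2733. The log2 value of ric-4 in Danube replicate 3 of the value table was -5.41, at a confidence of 0.04, where the other Danube arrays lay between -0.49 and 1.20.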

How the results depend on the processing

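No SNARE probe passed the study's thresholds on the log2 ratio in Elbe against Danube. Leaving out each array gave 0 to 0, where 4.91% to 7.74% of filtered probes passed. With the Cy5 signal alone 3 passed. The value table, whose rows follow the same Cy5 signal, gave 3 by limma and 3 by a t-test between the sediments. In Rhine against Danube 1 probe passed with one loess curve per array (snb-1, 0.62), where 15.3% of filtered probes passed. With median centring 2 passed (snb-1, 1.32, and syx-16, 1.12), where 33.9% did. Leaving out single arrays gave 0 to 1, where 9.38% to 15.1% of filtered probes passed. In Elbe against Rhine 2 passed with the Cy3 signal alone, an alternative chosen after seeing the data, namely ykt-6 (1.24) and the b probe of unc-64 (1.33). Cy3 is the reference pool, by which the ratio divides, so a higher Cy3 signal lowers the ratio. Over left-out arrays the log2 ratio gave 0 to 1 in Elbe against Rhine, where 8.12% to 13% of filtered probes passed. In the value table, whose alternatives were also chosen after seeing the data, the 3 calls in Elbe against Danube became 0 with the image series as a block and 1 to 3 over left-out arrays. The other comparisons gave 0 to 0 (Rhine against Danube) and 0 to 1 (Elbe against Rhine). The cause of these changes was not tested.

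Probes with an adjusted p under 0.05 numbered 1 in Elbe against Danube and became 2 with scaling between arrays, 5 with detection on all 15 arrays, and 0 with one loess curve, no filter, Cy5 or Cy3 alone, the value table, the image series block, only the sediments compared or either t-test, and 0 to 1 over left-out arrays. In Rhine against Danube 0 became 6 with detection on all 15 arrays, 1 with Cy5 alone and 2 with Cy3 alone (0 to 0 over left-out arrays). In Elbe against Rhine 0 became 1 with one loess curve, 4 with median centring and 14 with detection on all 15 arrays. It became 1 with the replicate block, 2 with only the sediments compared and 3 with a t-test between the sediments. With Cy3 alone it was 1, and over left-out arrays 0 to 5.

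The share of probes past the thresholds ran from 1.78% (image series block) to 8.77% (Cy5 alone) in Elbe against Danube, 2.21% (image series block) to 33.9% (median centring) in Rhine against Danube and 6.3% to 14.1% in Elbe against Rhine. Median centring moved the median of filtered probes from 0.24 to 0.80 in Rhine against Danube, from 0.08 to 0.28 in Elbe against Danube and from -0.17 to -0.53 in Elbe against Rhine. Of the calls, 69.0% were higher in Elbe than in Danube, and 82.0% with median centring and 82.5% with Cy5 alone. The share higher in Rhine than in Danube was 88.8%, and 50.4% with Cy5 alone, and that higher in Elbe than in Rhine was 23.7%, and 9.16% with median centring and 73.1% with Cy5 alone. Same-numbered arrays correlated at -0.04 to 0.13, over 0.1 in at most 1 of 5 pairs of a comparison, so the numbers were not taken to pair the samples. Of the 5 arrays of the sediment named first, 1 correlated best with its own number in Elbe against Danube, 4 in Rhine against Danube and 2 in Elbe against Rhine, a hint from the data and not from the design. The replicate block left 0 SNARE probes past the thresholds on the log2 ratio and 3 in the value table. Of 762 alternative values of single SNARE probes on the log2 ratio, 93 had the other sign. Detection limits gos-28, ric-4 and ykt-6 most.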

Other observations

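The second of the probes most like snb-1, T10H9.1 (r = 0.79 over 15 arrays), lies 3 protein-coding genes from snb-1 in the WBcel235 gene table, and was looked at for this reason after its value was seen. Between them lie syx-18, a SNARE gene of the endoplasmic reticulum whose probe was detected on 3 of 15 arrays (r = 0.51 with snb-1), and T10H9.8, for which no probe was matched. On the other side, pmp-5, str-180 and cest-28 had r of -0.27, 0.14 and -0.58 with snb-1. Among the neighbours of the other filtered members, within 3 protein-coding genes on either side, r with the member ran from -0.53 to 0.44.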
